A study of Mus musculus with 6 samples.

Results

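A set of 8 genes that respond to glucocorticoids or bear on energy use was followed across proB cells of mice with and without individual zinc fingers of Ikaros. They were taken by name: Nr3c1, Tsc22d3, Txnip, Ddit4, Stk11, Prkaa1, Insr and Cnr2, which are 8 of the 22098 gene symbols in the table. Where a symbol had more than 1 transcript, the one of highest mean level was used. All 8 passed the filter of a mean of at least 1 RPKM (reads scaled to transcript length and to the size of the library) that 10943 genes passed.

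Glucocorticoids bind the glucocorticoid receptor, encoded by Nr3c1, which leaves its chaperones, enters the nucleus and switches on genes such as Tsc22d3 in lymphocytes. Txnip limits glucose uptake, Ddit4 limits mTORC1 activity and the kinase chain from Stk11 to Prkaa1 curbs growth that consumes energy, while the insulin receptor Insr favours uptake. In human B-cell leukaemia, Ikaros and PAX5 are known as factors that limit the energy supply of B-lineage cells, with NR3C1, TXNIP and CNR2 among the genes they act through.

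Total RNA of sorted proB cells from the bone marrow of C57BL/6 mice, 6 to 7 weeks old, was sequenced in 6 libraries. The groups were the mutant Ikaros_ZnF4-/- (ZnF4), the mutant Ikaros_ZnF1-/- (ZnF1) and wt, each as Hardy fraction B and as the pool of fractions C and C' (fraction C), with 1 library for each combination. The labels name no agent, treatment or transgene, and do not say how many animals entered a library or whether the cells came from separate sorts. A difference between a pair of libraries therefore has no replicate check, and p-values from the model over all 6 libraries measure only the spread between these libraries. In bulk RNA, fewer cells of a type and less RNA per cell cannot be told apart.

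All 12 proB markers, among them Pax5, Igll1 and Rag1, were present in every library, with summed levels of 4907 and 4538.9 RPKM in ZnF4, 5177 and 2270.9 RPKM in ZnF1 and 3613.1 and 2876.8 RPKM in wt; each pair of values here and below is for fraction B and then fraction C. The ZnF1 library of fraction C stood apart: its 13 granulocyte and monocyte markers summed to 43174.6 RPKM, against 1027 to 3818.4 RPKM in the other 5 libraries, and none of the 13 was at 0 in any library. Its 9 erythroid markers summed to 3686 RPKM, against 133 to 313.8 RPKM elsewhere. Xist was listed at 0 in the 4 mutant libraries and stood at 81.3 and 91.9 RPKM in wt, so sex and genotype cannot be told apart in comparisons with wt. Ikzf1, which encodes Ikaros, stood at 431.6 and 425.1 RPKM in ZnF4, 181.5 and 154.1 RPKM in ZnF1 and 150.3 and 169.4 RPKM in wt; a value per transcript does not show whether the finger is missing, so it does not check the labels. Scaling the libraries on the 12 proB markers moved the median log2(RPKM + 1) difference of all genes between ZnF4 and wt to -0.467 in fraction B and -0.604 in fraction C, against -0.0885 and -0.0467 as deposited. Between ZnF1 and wt it moved to -0.437 and 0.331, against 0.0424 and -0.159.

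Among the 8 genes, Txnip was the most abundant, with a mean of 128.5 RPKM over the 6 libraries, followed by Stk11 at 82.6 RPKM, Tsc22d3 at 34.7 RPKM and Nr3c1 at 26.2 RPKM. Ddit4, Prkaa1, Insr and Cnr2 averaged 12.8, 9.62, 8.33 and 6.4 RPKM. Of the 8, 4 (Cnr2, Ddit4, Tsc22d3 and Txnip) spanned at least 1 on the log2(RPKM + 1) scale between their lowest and highest library, at 2.96, 1.80, 1.79 and 1.29. The receptors and kinases Prkaa1, Nr3c1, Stk11 and Insr spanned 0.35, 0.36, 0.48 and 0.58. Among all genes, 5.77% and 6.27% had a smaller span than Prkaa1 and Nr3c1, whereas 94.1% had a smaller span than Cnr2.

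**Figure D1:**
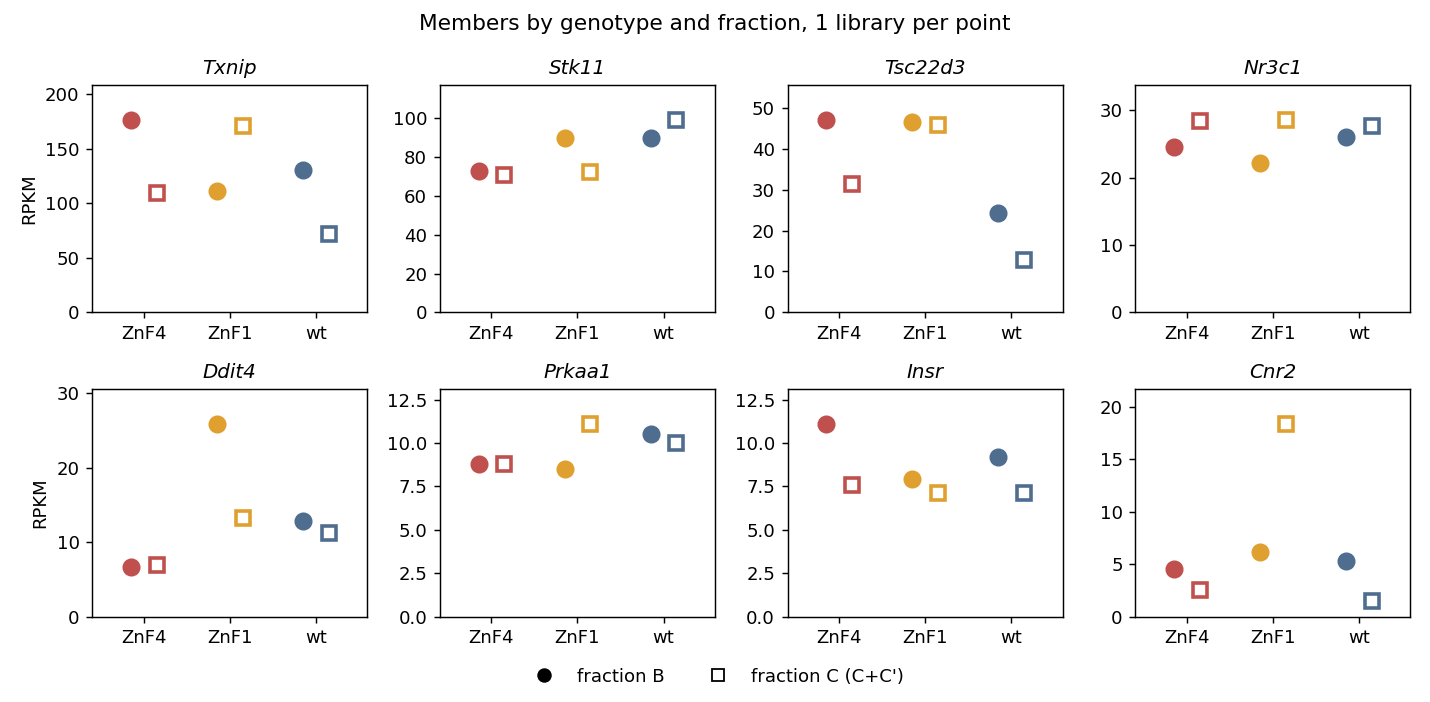
Level of each of the 8 genes (RPKM, from 0) in the 6 libraries, by genotype, with fraction B and fraction C as separate marks and 1 library a point. Cnr2 stands at 18.4 RPKM in the ZnF1 library of fraction C and at 1.5 to 6.2 RPKM in the other 5, and Tsc22d3 is lowest in both wt libraries.

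The glucocorticoid receptor gene Nr3c1 stood at 24.5 and 28.4 RPKM in ZnF4, 22.1 and 28.6 RPKM in ZnF1 and 26.0 and 27.7 RPKM in wt. No neighbours in the order of its 6 levels differed by more than 1.11-fold. The 3 libraries of fraction C were above those of fraction B in their own genotype, by 0.21 in ZnF4, 0.36 in ZnF1 and 0.09 in wt on the log2 scale, an order that 12.2% of all genes share. The limma estimate for ZnF4 against wt was -0.02 (SE 0.16, adjusted p = 0.948), and for fraction C against fraction B it was 0.22 (SE 0.13, adjusted p = 0.854).

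Tsc22d3 encodes GILZ, a leucine zipper protein that glucocorticoids induce and that mediates part of their anti-inflammatory action. It stood at 47.1 and 31.4 RPKM in ZnF4, 46.5 and 45.9 RPKM in ZnF1 and 24.4 and 12.9 RPKM in wt. All 4 mutant libraries were above both wt libraries, which holds for 7.75% of all genes, and Tsc22d3 was the only one of the 8 with this order. On the log2 scale it was higher in ZnF4 than in wt by 0.92 in fraction B (1.89-fold) and 1.22 in fraction C (2.33-fold), and higher in ZnF1 than in wt by 0.90 (1.87-fold) and 1.75 (3.37-fold). After scaling on proB markers it was still higher, by 0.54 and 0.66 in ZnF4 and, in fraction B, by 0.42 in ZnF1. In fraction C the ZnF1 difference became 2.24, but this scaling raises every difference in that pair. The ZnF1 library of fraction C had 43174.6 RPKM of granulocyte and monocyte markers, against 2696.1 RPKM in wt. Their part in the 1.75 and 2.24 was not tested. Over both fractions the limma differences were 1.07 (SE 0.25, adjusted p = 0.167) for ZnF4 against wt and 1.33 (SE 0.25, adjusted p = 0.390) for ZnF1 against wt, neither of which passed 0.05. Tsc22d3 lies on the X chromosome, and the wt libraries were those with Xist; the part of sex in its difference cannot be told apart.

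Fraction C was below fraction B for Tsc22d3 in each genotype, with log2 differences of -0.57 in ZnF4, -0.02 in ZnF1 and -0.87 in wt, and 13.4% of all genes were lower in all 3. After scaling on proB markers the ZnF1 difference turned, to 1.17, while those in ZnF4 and wt stayed negative at -0.53 and -0.65.

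The table held 2 transcripts of Tsc22d3, which start at separate promoters. The longer, used above, carried 79.0% to 85.4% of the summed RPKM in each library. The shorter stood at 10.9 and 6.9 RPKM in ZnF4, 10.8 and 8.4 RPKM in ZnF1 and 6.5 and 2.2 RPKM in wt. For it too, all 4 mutant libraries were above both wt libraries. How reads shared by the 2 transcripts were assigned is not stated, so the shorter is not an independent check of the longer. The 250 bases before each RefSeq start are shown because they differ in GGGAA, the core of the sequence Ikaros binds. Sequences are from RefSeq (build GRCm38.p6, whereas the files used mm9), 5′ to 3′ on the strand of the gene, and capitals mark GGGAA or its extended form TGGGAA on either strand.
Tsc22d3 shorter transcript, chrX:140542669-140542918, minus strand: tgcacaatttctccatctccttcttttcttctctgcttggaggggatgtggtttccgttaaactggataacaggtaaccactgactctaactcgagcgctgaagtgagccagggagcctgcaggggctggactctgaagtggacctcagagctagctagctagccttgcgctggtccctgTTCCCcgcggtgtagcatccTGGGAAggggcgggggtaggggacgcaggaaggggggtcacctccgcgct
Tsc22d3 longer transcript, chrX:140600523-140600772, minus strand: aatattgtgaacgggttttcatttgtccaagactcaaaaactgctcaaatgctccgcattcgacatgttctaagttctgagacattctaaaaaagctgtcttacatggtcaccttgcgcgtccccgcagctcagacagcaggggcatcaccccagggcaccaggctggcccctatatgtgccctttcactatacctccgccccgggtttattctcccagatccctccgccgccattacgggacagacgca
The window of the shorter transcript held GGGAA on the opposite strand 70 to 66 bases and on the gene's strand 49 to 45 bases upstream of the start, the second within TGGGAA. That of the longer held neither. GGGAA occurred in 56.2% and TGGGAA in 21.6% of 32851 promoter windows of this length, so a match is common. Starts taken from another annotation (GENCODE, GRCm38) lay upstream of these RefSeq starts, by 519 bases for the shorter transcript and 137 bases for the longer. By those starts, the whole window of the shorter transcript and part of that of the longer lie downstream of the start. The part of GGGAA in the levels was not tested.

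**Figure D2:**
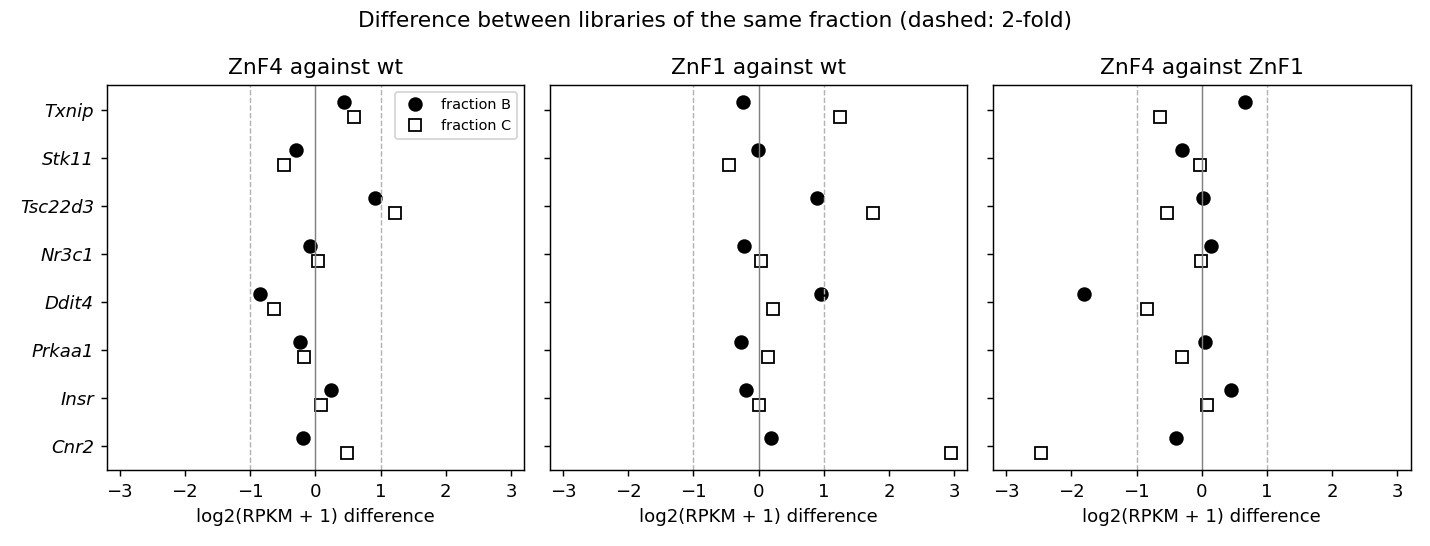
Differences in log2(RPKM + 1) of the 8 genes for ZnF4 against wt, ZnF1 against wt and ZnF4 against ZnF1, with fraction B and fraction C as separate points and 2-fold dashed. Tsc22d3 lies right of 0 in both mutants and both fractions, and Ddit4 is left of 0 in ZnF4 and right of it in ZnF1.

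Other glucocorticoid-induced genes did not share one direction. Of 18 tested in a list of 20 that includes Tsc22d3, Txnip and Ddit4, ZnF4 had 9 above wt and 9 below it in fraction B, and 10 above and 8 below in fraction C. The list's median log2 differences were 0.0409 and 0.321, beside -0.0885 and -0.0467 for all genes, and both turned negative, -0.338 and -0.236, after scaling on proB markers. None of the 18 passed limma. The largest positive differences belonged to Il7r, the receptor for the cytokine that proB cells need, and to the NF-kappaB inhibitor Nfkbia. Il7r stood at 316.6 and 287.5 RPKM in ZnF4 and 110.2 and 96.2 RPKM in wt, and Nfkbia at 112.6 and 93.5 RPKM in ZnF4 and 54.4 and 37.0 RPKM in wt. At the other end were the metallothionein Mt1, at 1.2 and 3.8 RPKM in ZnF4 and 7.6 and 19.3 RPKM in wt, and the phosphatase Dusp1, at 3.3 and 5.3 RPKM in ZnF4 and 15.3 and 12.1 RPKM in wt. In ZnF1 against wt, 8 of the 18 were higher in fraction B and 13 in fraction C, where 6 were at least 2-fold higher, as were 12.6% of all genes. Dusp1 stood at 104.5 RPKM in that ZnF1 library, in which 10 genes of stress and cell dissociation summed to 452.5 RPKM, against 57.6 to 97.7 RPKM in the other 5. The part of stress in these values was not tested.

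The chaperones and cofactors of the receptor were mostly lower in ZnF4 than in wt. Of 14 genes tested in a list of 16 that includes Nr3c1, 13 were lower in fraction B and 12 in fraction C, and 6 and 2 of them were at least 2-fold lower, where 9.81% and 6.12% of all genes were. The list's medians were -0.843 and -0.649, and with median scaling 10 and 11 of the 14 were still lower. The 2-fold counts of 6 and 2 became 3 and 2 under median scaling. They became 9 and 9 under scaling on proB markers, which lowers every difference between ZnF4 and wt. None passed limma. Markers of most other cells were also lower in ZnF4. The granulocyte and monocyte sum was 0.269 and 0.655 times that of wt, with all 13 markers lower and none at 0. The erythroid sum was 0.424 and 0.791 times, and the T lineage sum 0.296 and 0.573 times. The NK sum was 0.0287 and 0.207 times, with 6 and 1 of 8 markers at 0. The plasmacytoid dendritic sum was 0.813 times in fraction B but 1.29 times in fraction C, with 1 and 2 of 8 markers higher. Ly6d, higher in both fractions, made up most of the ZnF4 sum, at 277.4 and 143.4 RPKM, against 233.7 and 46.7 RPKM in wt. Tcf4 was also higher in fraction C. Siglech, among the lower markers, stood at 0.1 and 0.1 RPKM in ZnF4 and 24.2 and 7.5 RPKM in wt. The part of these other cells in the differences of the list was not tested. Hsp90ab1, a subunit of the chaperone that holds the unbound receptor, stood at 282.0 and 461.6 RPKM in ZnF4, 642.6 and 535.3 RPKM in ZnF1 and 637.3 and 1026.2 RPKM in wt. The co-chaperone Fkbp5, which lowers the receptor's affinity for hormone and is itself induced by glucocorticoids, stood at 8.7 and 17.6 RPKM in ZnF4, 33.5 and 42.2 RPKM in ZnF1 and 26.9 and 32.1 RPKM in wt. Each ZnF4 library was thus below every other library for both genes.

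Hsd11b1, the enzyme that regenerates active glucocorticoid, stood at 1.3 and 1.6 RPKM in ZnF4, 5.4 and 32.4 RPKM in ZnF1 and 5.9 and 4.0 RPKM in wt. The coactivator Ncoa1 was higher in ZnF4, with 12.1 and 10.6 RPKM in ZnF4 and 7.5 and 6.3 RPKM in wt. In ZnF1 against wt the list was split, 7 higher and 7 lower in each fraction. The ratio of Hsp90ab1 to Nr3c1 in RPKM was 11.5 and 16.3 in ZnF4, 29.1 and 18.7 in ZnF1 and 24.5 and 37.0 in wt. The mineralocorticoid receptor gene Nr3c2 was listed at 0 in every library. Hsp90aa1, Ptges3 and Hspa8 belong to the list but have near-identical copies in the genome, so their values are uncertain.

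**Figure D3:**
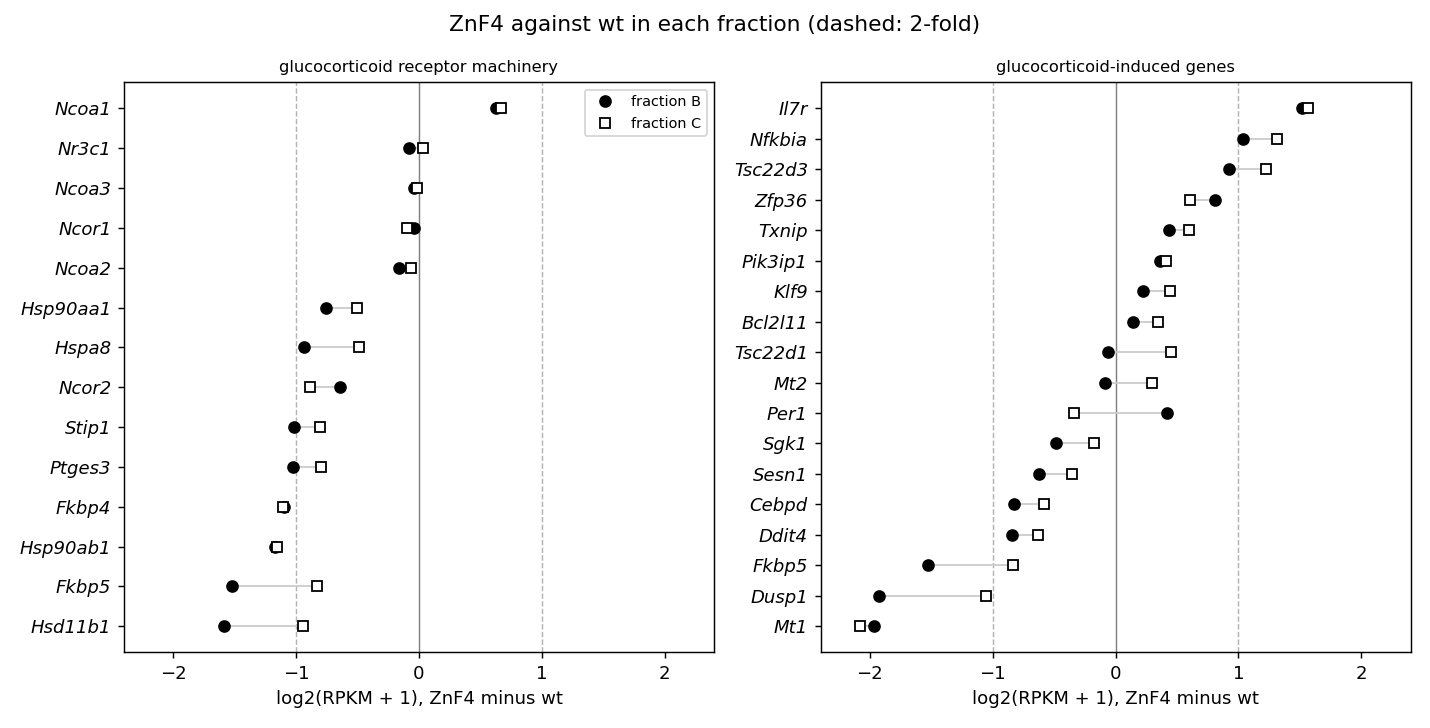
Difference in log2(RPKM + 1) between ZnF4 and wt for the genes of the receptor machinery and for glucocorticoid-induced genes, sorted by their mean, with fraction B and fraction C as separate marks and 2-fold dashed. Of 14 genes of the machinery, 13 lie below 0 in fraction B, whereas glucocorticoid-induced genes lie on both sides, from Il7r to Mt1.

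Txnip encodes an arrestin-like protein that binds thioredoxin and takes glucose transporters off the cell surface. It stood at 176.9 and 109.2 RPKM in ZnF4, 111.0 and 171.5 RPKM in ZnF1 and 130.7 and 71.7 RPKM in wt. The ZnF4 library was above the wt library of the same fraction, by 0.43 in fraction B (1.35-fold) and 0.60 in fraction C (1.52-fold), but the groups overlapped because the wt library of fraction B was above the ZnF4 library of fraction C. After scaling on proB markers these differences shrank to 0.06 and 0.04. In ZnF1 against wt the difference was -0.23 in fraction B and 1.247 in fraction C (2.37-fold), where the ZnF1 library had high granulocyte and monocyte markers. The limma estimate was 0.52 (SE 0.42, adjusted p = 0.559) for ZnF4 against wt.

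The second Txnip transcript differed in length by a few bases and carried little: it stood at 2.4 to 5.1 RPKM, and the one used held 96.6% to 97.8% of the sum. The noncoding gene Gm15441 overlaps Txnip and was not analysed here, and whether strand was used in counting is not given in the sources used here. Transcription of Txnip is known to follow glucose through the factors MondoA (Mlxip) and ChREBP (Mlxipl), which pair with Mlx on a carbohydrate response element. The RefSeq promoter is printed because the element could be looked for in it; capitals mark CACGAG and the next CACGAG after 5 bases, the form in which this element is known from the human TXNIP promoter.
Txnip, chr3:96557707-96557956, plus strand, GRCm38.p6: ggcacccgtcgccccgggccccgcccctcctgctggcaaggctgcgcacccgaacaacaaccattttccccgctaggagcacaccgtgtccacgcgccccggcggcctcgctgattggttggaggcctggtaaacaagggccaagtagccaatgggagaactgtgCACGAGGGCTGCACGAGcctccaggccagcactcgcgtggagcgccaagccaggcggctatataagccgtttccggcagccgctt
The match lay 85 to 69 bases upstream of the start, on the strand of the gene, and this was the only one of 32851 promoter windows with a match on either strand. This motif was added after the sequence had been read. GGGAA was found on the opposite strand 185 to 181 bases upstream.

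Mlxip stood at 90.1 and 51.6 RPKM in ZnF4, 67.6 and 37.8 RPKM in ZnF1 and 59.4 and 39.3 RPKM in wt, with fraction B above fraction C in each genotype. Mlxipl was at 0.1 RPKM or below in every library. Among 12 tested genes of thioredoxin, its reductases, the alpha-arrestins and the Mlx factors, ZnF4 had 7 below wt in fraction B and 6 in fraction C, and none passed limma. After scaling on proB markers 11 and 12 were below. The reductase gene Txnrd3 had the lowest mean difference, with 3.1 and 7.8 RPKM in ZnF4, 21.4 and 6.9 RPKM in ZnF1 and 15.5 and 20.9 RPKM in wt. Nlrp3, an inflammasome sensor to which Txnip can bind, came next, with 0 and 0.3 RPKM in ZnF4, 0.5 and 17.6 RPKM in ZnF1 and 2.1 and 1.4 RPKM in wt. Txnrd1, which keeps cytosolic thioredoxin reduced, was also low in ZnF4, with 15.1 and 23.7 RPKM in ZnF4 and 39.0 and 41.9 RPKM in wt. Arrdc4, a related arrestin that glucose also induces, was at 0.6 to 1.2 RPKM in 5 libraries and at 4.5 RPKM in the ZnF1 library of fraction C.

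Genes that bring in and trap glucose, the step that Txnip limits, were mostly lower in ZnF4 than in wt, 8 of 9 in fraction B and 7 of 9 in fraction C. The medians were -0.900 and -0.605, and -0.795 and -0.583 with median scaling. Scaling on proB markers lowers every difference between ZnF4 and wt, so a negative median could not turn under it. In the same libraries the granulocyte and monocyte marker sum was 1027 and 1765.7 RPKM in ZnF4 and 3818.4 and 2696.1 RPKM in wt, and its part in these differences was not tested. In ZnF1 against wt, 5 of the 9 were lower in fraction B, and all 9 were higher in fraction C, 6 of them at least 2-fold, where 12.6% of all genes were. None of the 9 passed limma. Hexokinase 2 (Hk2), the inducible enzyme that traps glucose in the cell, stood at 1.1 and 1.9 RPKM in ZnF4, 3.4 and 14.4 RPKM in ZnF1 and 5.1 and 7.4 RPKM in wt. The transporter gene Slc2a6 stood at 0.2 and 0.4 RPKM in ZnF4, 6.8 and 24.5 RPKM in ZnF1 and 4.2 and 1.8 RPKM in wt, while Slc2a8 was higher in ZnF4, with 10.5 and 7.7 RPKM in ZnF4 and 2.8 and 2.7 RPKM in wt.

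The main lymphocyte glucose transporter gene, Slc2a1, was flat except for 16.7 RPKM in the ZnF1 library of fraction C: it stood at 8.3 and 9.6 RPKM in ZnF4, 10 RPKM in the ZnF1 library of fraction B and 8.8 and 9.4 RPKM in wt. In that ZnF1 library Hk3, a hexokinase of myeloid cells, stood at 92.3 RPKM, against 2.1 to 9.4 RPKM elsewhere, and G6pdx, the entry enzyme of the pentose phosphate pathway, at 96.3 RPKM, against 9.5 to 18.6 RPKM. The library's granulocyte and monocyte marker sum was 16.0 times that of wt in fraction C; its part in these levels was not tested.

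**Figure D4:**
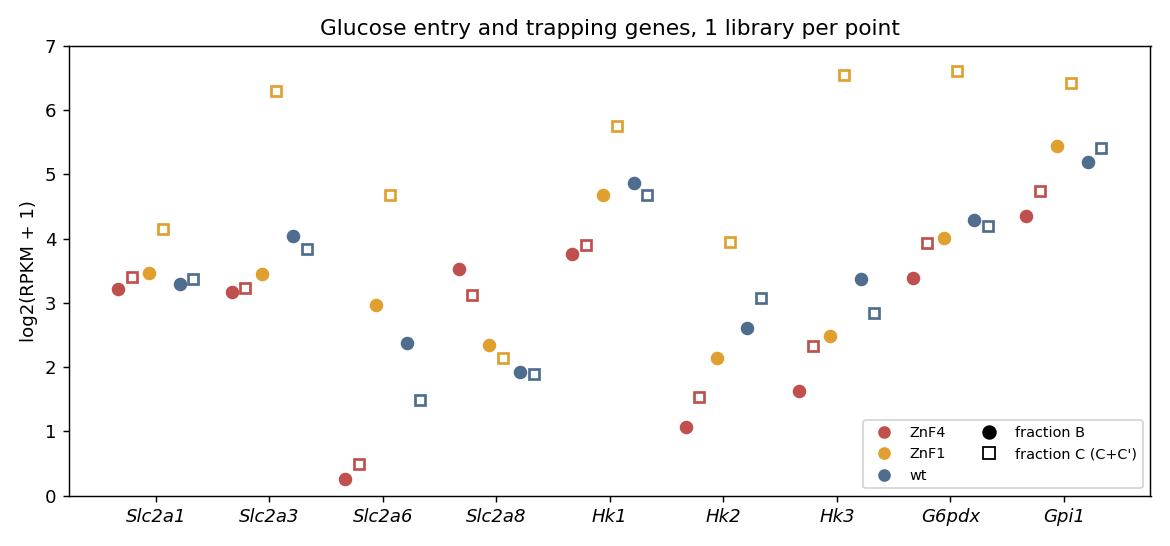
Levels of genes of glucose entry and trapping (RPKM) in the 6 libraries, by genotype and fraction, with 1 library a point. Hk3 and G6pdx reach 92.3 and 96.3 RPKM in the ZnF1 library of fraction C, and Slc2a6 is at 0.2 and 0.4 RPKM in ZnF4.

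Ddit4 encodes REDD1, an inhibitor of mTORC1 that stress and glucocorticoids induce. It stood at 6.7 and 6.9 RPKM in ZnF4, 25.9 and 13.2 RPKM in ZnF1 and 12.8 and 11.2 RPKM in wt. Both ZnF4 libraries were below both wt libraries, as were 33% of all genes, and both ZnF1 libraries were above both wt libraries, as were 19.4%. The log2 differences were -0.84 in fraction B and -0.63 in fraction C for ZnF4 against wt, and 0.96 (1.95-fold) and 0.22 for ZnF1 against wt. Between ZnF4 and ZnF1 they were -1.80 in fraction B and -0.85 in fraction C, and -1.70 and -1.89 after scaling on proB markers. The limma estimates were -0.73 (SE 0.29, adjusted p = 0.297) for ZnF4 against wt and -1.33 (SE 0.29, adjusted p = 0.0978) for ZnF4 against ZnF1. The smallest adjusted p of the 8 genes in any of the comparisons was this 0.0978.

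Among 24 tested genes of mTORC1 and its restraints, ZnF4 had 11 above wt and 12 below it in fraction B and 12 above and 12 below in fraction C, none by 2-fold. After scaling on proB markers 19 and 23 were below, 2 and 3 of them by 2-fold. The sestrin gene Sesn1, which like Ddit4 restrains mTORC1, stood at 19.8 and 17.5 RPKM in ZnF4, 51.7 and 30.4 RPKM in ZnF1 and 31.0 and 22.6 RPKM in wt, the same order of genotypes in each fraction. Nprl2, a subunit of the GATOR1 complex, was higher in ZnF4, at 26.0 and 27.0 RPKM, against 17.4 and 14.5 RPKM in wt. Tsc2, the restraint through which Ddit4 acts, was at 17.5 to 22.2 RPKM throughout.

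Stk11 encodes LKB1, the kinase that activates AMPK, and stood at 72.8 and 71.0 RPKM in ZnF4, 89.8 and 72.6 RPKM in ZnF1 and 89.9 and 99.4 RPKM in wt. All 4 mutant libraries were below both wt libraries, as for 10.1% of all genes, though the ZnF1 library of fraction B was lower by only 0.1 RPKM. The log2 differences from wt were -0.30 and -0.48 in ZnF4 and, in fraction C, -0.45 in ZnF1. After scaling on proB markers the ZnF1 difference in fraction C turned to 0.04. limma gave -0.39 (SE 0.20, adjusted p = 0.378) for ZnF4 against wt. In the annotation Stk11 overlaps the protein-coding gene Cbarp, so reads from the shared part cannot be told apart.

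Among 16 tested genes of the LKB1 complex, the other kinases it activates and the CaM kinase kinases, which also act on AMPK, 10 were higher in ZnF4 than in wt in each fraction, but 3 and 2 after scaling on proB markers. Sik1, a kinase that holds back CREB coactivators, stood at 67.1 and 36.0 RPKM in ZnF4, 9.8 and 14.8 RPKM in ZnF1 and 21.1 and 14.3 RPKM in wt. Nuak1 stood at 34.5 and 17.2 RPKM in ZnF4, 12.3 and 4.7 RPKM in ZnF1 and 13.5 and 6.5 RPKM in wt. It was called between ZnF4 and ZnF1, with a limma difference of 1.55 (SE 0.18, adjusted p = 0.0429), and was higher in ZnF4 in both fractions. The pseudokinase gene Strada, which partners LKB1, stood at 15.7 and 16.5 RPKM in ZnF4 and 21.3 and 24.4 RPKM in wt, low in ZnF4 as Stk11 was. Mark1 and Brsk2 were listed at 0 in every library.

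Prkaa1 encodes the alpha1 catalytic subunit of AMPK and stood at 8.8 RPKM in both ZnF4 libraries, 8.5 and 11.1 RPKM in ZnF1 and 10.5 and 10 RPKM in wt. Both ZnF4 libraries were below both wt libraries, as were 33% of all genes, with log2 differences of -0.23 and -0.17. No neighbours in the order of its levels differed by more than 1.14-fold. The limma difference for ZnF4 against wt was -0.20 (SE 0.20, adjusted p = 0.627). The other catalytic subunit gene, Prkaa2, stood at 0.1 to 0.8 RPKM and did not pass the filter.

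Of 5 AMPK subunit genes tested, none was 2-fold apart in any pair of libraries compared, as deposited. The scaffold subunit gene Prkab1 stood at 25.7 and 28.2 RPKM in ZnF4, 21.5 and 38.9 RPKM in ZnF1 and 23.6 and 25.9 RPKM in wt, and the nucleotide-binding subunit gene Prkag1 at 39.5 and 45.8 RPKM in ZnF4, 45.7 and 57.7 RPKM in ZnF1 and 45.7 and 52.3 RPKM in wt. Prkag1 was 4.35 to 5.38 times Prkaa1 in RPKM in the 6 libraries. Prkab2 and Prkag2 were at 2.3 to 3.7 and 6.5 to 9.6 RPKM. Among 16 tested targets and outputs of AMPK, ZnF4 had 7 above wt and 9 below it in fraction B, and 7 above and 8 below in fraction C, and none passed limma. After scaling on proB markers 13 and 16 were below.

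Insr, the insulin receptor gene, stood at 11.1 and 7.6 RPKM in ZnF4, 7.9 and 7.1 RPKM in ZnF1 and 9.2 and 7.1 RPKM in wt. Fraction C was below fraction B in each genotype, with log2 differences of -0.49 in ZnF4, -0.14 in ZnF1 and -0.33 in wt; after scaling on proB markers it was below in ZnF4 and wt but above in ZnF1. The difference from wt was 0.25 and 0.09 in ZnF4, and -0.13 and -0.47 after that scaling. No neighbours in the order of its levels differed by more than 1.21-fold. limma gave 0.17 (SE 0.19, adjusted p = 0.673) for ZnF4 against wt and -0.32 (SE 0.16, adjusted p = 0.854) for fraction C against fraction B. The related receptor gene Igf1r stood at 9.0 and 6.6 RPKM in ZnF4, 5.2 and 18.3 RPKM in ZnF1 and 5.6 and 4.4 RPKM in wt.

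In a list of insulin receptor signalling that includes Insr and Igf1r, ZnF4 had 14 of 22 tested genes above wt in fraction B and 17 in fraction C, but 8 and 3 after scaling on proB markers. Inppl1 encodes SHIP2, a phosphatase that dampens insulin signalling, and was called between ZnF4 and ZnF1, with a limma difference of 3.86 (SE 0.25, adjusted p = 0.0359). It stood at 29.3 and 28.4 RPKM in ZnF4, 1.0 and 1.1 RPKM in ZnF1 and 8.0 and 13.5 RPKM in wt, so the mutants lay on opposite sides of wt. The docking protein gene Irs1 had the same order at lower levels, 4.0 and 3.0 RPKM in ZnF4, 0.2 and 0.3 RPKM in ZnF1 and 2.0 and 2.3 RPKM in wt. Irs4 was listed at 0.

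Cnr2 encodes the cannabinoid receptor of immune cells, which couples to inhibitory G proteins and is found on B cells and myeloid cells. It stood at 4.5 and 2.5 RPKM in ZnF4, 6.2 and 18.4 RPKM in ZnF1 and 5.3 and 1.5 RPKM in wt. The log2 differences were -0.20 in fraction B and 0.49 in fraction C for ZnF4 against wt, 0.19 and 2.96 for ZnF1 against wt, and -0.39 and -2.47 for ZnF4 against ZnF1. Both ZnF1 libraries were above both wt libraries, as were 19.4% of all genes. Both ZnF4 libraries were below both of ZnF1, as were 27.5% of all genes. The difference of 2.96 is 7.76-fold and comes from the library with 43174.6 RPKM of granulocyte and monocyte markers, against 2696.1 RPKM in wt; their part in it was not tested. In fraction B, where that sum was 1656.5 RPKM in ZnF1 and 3818.4 RPKM in wt, the ZnF1 difference was 0.19. Between fractions Cnr2 had opposite signs: C against B was -0.65 in ZnF4, 1.43 in ZnF1 and -1.33 (2.52-fold lower in C) in wt, where 1.35% of all genes were at least 2-fold apart in either direction. limma gave 1.57 (SE 0.71, adjusted p = 0.535) for ZnF1 against wt and -1.43 (SE 0.71, adjusted p = 0.302) for ZnF4 against ZnF1.

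**Figure D5:**
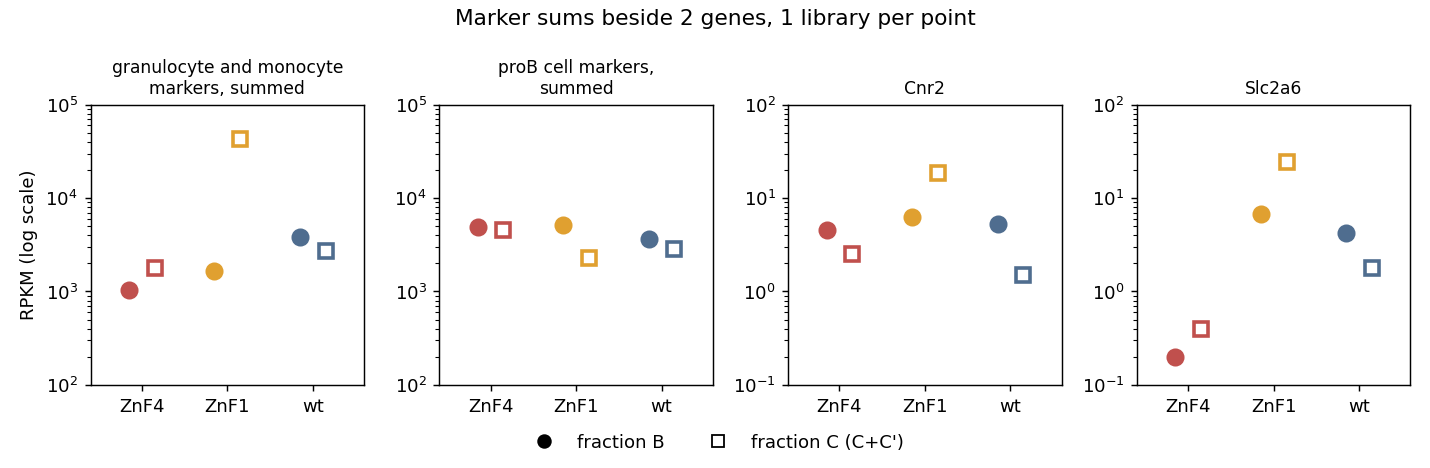
Summed levels (RPKM, log axes) of proB and of granulocyte and monocyte markers, beside Cnr2 and Slc2a6, in the 6 libraries by genotype and fraction. The ZnF1 library of fraction C has 43174.6 RPKM of granulocyte and monocyte markers and 18.4 RPKM of Cnr2, the highest of the 6 in both.

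Of 6 tested genes of cannabinoid receptors and lipid mediators, ZnF4 had 2 above wt in fraction B and 3 in fraction C. Abhd6, a hydrolase that degrades the endocannabinoid 2-arachidonoylglycerol, stood at 7.2 and 6.8 RPKM in ZnF4, 2.2 and 1.2 RPKM in ZnF1 and 1.9 and 1.7 RPKM in wt. Mgll, the main hydrolase of that lipid, stood at 1.2 and 2.8 RPKM in ZnF4, 1.7 and 11.7 RPKM in ZnF1 and 4.5 and 6.3 RPKM in wt. Cnr1 and the synthase gene Dagla were listed at 0 in every library.

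Counted together, none of the 8 genes was at least 2-fold apart between ZnF4 and wt in fraction B, where 13.5% of all genes were, and Tsc22d3 alone was in fraction C, where 9.67% were. Between ZnF1 and wt the number was 0 in fraction B (4.28% of all genes) and 3 in fraction C (20%), where Txnip, Tsc22d3 and Cnr2 were higher. Between ZnF4 and ZnF1, Ddit4 was lower in fraction B (15.9% of all genes in either direction) and Cnr2 in fraction C (21.6%). Between fractions, none passed 2-fold in ZnF4 (3.34%), and Cnr2 alone did in ZnF1 (14.2%) and in wt (1.35%). The highest count, 3, came from the library that stood apart.

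limma called none of the 8 at an adjusted p under 0.05 in any comparison over the 6 libraries. It called 3 of 10943 genes (0.0274%) for ZnF4 against wt, 3 (0.0274%) for ZnF1 against wt, 199 (1.82%) for ZnF4 against ZnF1 and 0 (0%) for fraction C against fraction B, with 1930, 1018, 2489 and 511 genes at an unadjusted p under 0.05. Among the 8, Tsc22d3 had unadjusted p-values of 0.0108 for ZnF4 against wt and 0.00474 for ZnF1 against wt, and Ddit4 one of 0.00776 for ZnF4 against ZnF1. The fits of fewer libraries that follow leave fewer residual degrees of freedom than the 2 of the full fit, and no combination of genotype and fraction in them is replicated. Without the ZnF1 library of fraction C, limma called 4 of the 8 for ZnF4 against wt: Tsc22d3 (adjusted p = 0.00789), Ddit4 (0.0168), Txnip (0.0251) and Stk11 (0.0461). In that fit 31.6% of all genes were called. Without the ZnF1 library of fraction B the number was also 4, with 30.8% of all genes called, and in the fit of the ZnF4 and wt libraries alone it was 4, with 31.9%. For ZnF1 against wt, limma called 3 of the 8 without the ZnF1 library of fraction B, where 37.6% of all genes were called, and 0 without that of fraction C, where 0.146% were. For ZnF4 against ZnF1 it called 4 without the ZnF1 library of fraction B (37.5% of all genes) and 2 without that of fraction C (24.6%).

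Tsc22d3 and Txnip, both glucocorticoid-induced, differed in their patterns by a root mean square of 0.391 on the centred log2 scale over the 6 libraries. Txnip ranked 76 among 8221 genes by likeness to Tsc22d3, and Tsc22d3 ranked 812 by likeness to Txnip. The gene most like Tsc22d3 was Btg2, an antiproliferative gene, at a distance of 0.159, with 230.6 and 141.4 RPKM in ZnF4, 161.4 and 207.5 RPKM in ZnF1 and 116.8 and 59.0 RPKM in wt, followed by Dennd3 (0.209) and Ifi30 (0.222). The median distance over all genes was 0.750. Nearest to Txnip were Ddx58 (0.0958), which encodes the RNA sensor RIG-I, Samd9l (0.114) and Dennd1c (0.118), beside a median of 0.586. Ddit4 was matched most closely by Spata13 (0.0731), Cep164 (0.0860) and Hhex (0.101), beside a median of 0.650. Nearest to Cnr2 were Notch2 (0.234), Itsn1 (0.272) and Cyth4 (0.283), all highest in the ZnF1 library of fraction C, beside a median of 1.02. With 6 libraries, such likeness is a description and not a test.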

How the data were processed

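Library preparation was Illumina TruSeq, per the labels' protocols. The table holds RPKM values that the authors computed for each RefSeq transcript and deposited rounded to 0.1; per the submitters' processing notes, the tools were TopHat and bedtools and the build mm9, with no version or role stated. Strand use, the RPKM denominator and the treatment of shared reads are not stated in any source used. Near-identical copies exist of some genes, such as Gapdh, which stood near 0, so a value of 0 means only listed at 0. Whole reads were not recovered: 21.3% to 33.8% of low values per library could be whole, against 15.3% to 27.4% by chance, so depth is unknown and no counting interval is given.

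Of 26532 rows, 1 had no gene name and 0 columns were of other samples. The other 26531 transcripts had 22098 symbols, 3305 of them with several transcripts, each represented by the transcript of highest mean. A mean of 1 RPKM or more was required, which left 10943 genes. Differences are in log2(RPKM + 1), which understates the change of low genes, and a fold is 2 to that power. limma 3.58.1 (R 4.3.3; lmFit, eBayes with trend) was fitted to all 10943 genes with genotype and fraction as additive terms, which leaves 2 residual degrees of freedom; p-values are two-sided and adjusted by Benjamini-Hochberg over all genes. The procedure was tested on simulated data with large changes in ZnF4 and a small, even spread. No simulated genotype effect differed between fractions, so this does not show how the fit performs on these libraries. Tables were made with Python 3.11.15, pandas 2.3.3 and numpy 2.4.6.

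The 8 genes, the 11 gene lists and the 8 marker lists were chosen with earlier results of these data known. From each list, the text names the 2 genes at either end of the mean differences in a comparison, genes listed at 0, and paralogs, subunits and glucose genes listed by name. Hsp90ab1, Hsp90aa1 and Sesn1 fall outside this rule and were named after their values were seen. Txn1 and Mlxipl fall outside it as well. Not every gene chosen this way is reported here. Patterns were compared over genes averaging at least 5 RPKM by the root mean square of the centred log2 differences. Alternatives were pseudocounts of 0.25 and 5, no filter or a mean of at least 5 RPKM, median scaling, scaling on proB markers, summed transcripts, eBayes without trend, each library left out, and fits of 4 libraries. Promoter windows are from RefSeq, GRCm38.p6, in which 6 of the 8 genes have an entry and Nr3c1 and Insr have none. Motifs searched on both strands were the Ikaros core GGGAA and its longer form TGGGAA, the E-box and a paired carbohydrate response element. The whole and partial glucocorticoid response element were also searched, and neither was found in the 9 windows of the 6 genes.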

Additional observations from a re-analysis of the deposited data

Results flagged for a closer look

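Some of the 8 genes had opposite signs in the 2 fractions under the same contrast. With 1 library a group, none of these differences between fractions was tested. Values are log2(RPKM + 1) differences, fraction B first and then fraction C.

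Txnip showed the widest such pair, -0.23 and 1.247 for ZnF1 against wt, and 0.67 and -0.65 for ZnF4 against ZnF1. Both contrasts use the ZnF1 library of fraction C, whose granulocyte and monocyte markers summed to 43174.6 RPKM; its part was not tested. Tsc22d3 had 0.018 and -0.53 for ZnF4 against ZnF1, and Prkaa1 had -0.28 and 0.14 for ZnF1 against wt and 0.045 and -0.30 for ZnF4 against ZnF1. For Cnr2, ZnF4 against wt gave -0.20 and 0.49, but -0.57 and -0.072 after scaling on proB markers. The receptor gene Nr3c1 had small values of both signs in each contrast: -0.082 and 0.035 for ZnF4 against wt, -0.23 and 0.045 for ZnF1 against wt, and 0.14 and -0.0098 for ZnF4 against ZnF1. Under other scalings some of these signs were alike: for ZnF4 against wt, Nr3c1 gave 0.023 and 0.057 with median scaling and -0.46 and -0.52 on proB markers, and for ZnF4 against ZnF1 it gave 0.29 and 0.034 with median scaling. The other 6 pairs kept opposite signs under both scalings.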

How the results depend on the processing

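No paired analysis was possible because the labels carry no replicate numbers and each group is 1 library. Depth is unknown, so low genes such as Cnr2 carry an error that cannot be stated. Of 122 alternative counts of the 8 genes, 109 stayed within 1.5 times the value reported. The number at least 2-fold apart between ZnF4 and wt in fraction B became 1 under median scaling and 1 under scaling on proB markers, against 0. Under scaling on proB markers it became 2 for ZnF4 against wt in fraction C, 7 for ZnF4 against ZnF1 in fraction C and 6 for C against B in ZnF1, against 1 each. A pseudocount of 0.25 gave 1 for ZnF1 against wt in fraction B, against 0, and a pseudocount of 5 gave 0 for C against B in wt, against 1. limma called 4 of the 8 for ZnF4 against wt in the fit of only those 4 libraries, where 31.9% of all genes were called. With 1 library left out the number was 0 to 4 for ZnF4 against wt, 0 to 3 for ZnF1 against wt (3 without the ZnF1 library of fraction B, where 37.6% of all genes were called) and 0 to 4 for ZnF4 against ZnF1 (4 without the ZnF1 library of fraction B and 2 without that of fraction C, where 37.5% and 24.6% were called). With only 2 libraries of a genotype, leaving out 1 assumes that the lone library varies like the other groups. Such fits, and the fits of 4 libraries, leave fewer residual degrees of freedom than the 2 of the full fit.

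Of 472 alternative limma differences of the 8 genes, 35 changed sign and 417 kept sign and call; the cause was not tested. Under median scaling Nr3c1 gave 0.040 for ZnF4 against wt. Scaling on proB markers gave -0.30 for Insr and -0.32 for Cnr2 in ZnF4 against wt, and -0.46 for Txnip, -0.41 for Nr3c1 and -0.21 for Insr in ZnF4 against ZnF1. For C against B it gave 0.18 for Txnip, 0.16 for Insr, 0.13 for Ddit4, 0.42 for Stk11 and 0.30 for Cnr2, which was 0.019 with a pseudocount of 5. With 1 library left out, ZnF4 against wt ran from -0.72 to 1.01 for Cnr2 and from -0.12 to 0.073 for Nr3c1. ZnF1 against wt ran from -0.20 to 0.015 for Nr3c1, -0.24 to 0.040 for Insr, -0.26 to 0.12 for Prkaa1 and -0.19 to 1.21 for Txnip. ZnF4 against ZnF1 ran from -0.69 to 0.71 for Txnip, -0.039 to 0.17 for Nr3c1, -0.34 to 0.013 for Stk11, -0.61 to 0.093 for Tsc22d3 and -0.32 to 0.061 for Prkaa1. C against B ran from -0.99 to 0.39 for Cnr2, -0.032 to 0.17 for Prkaa1 and -0.17 to 0.054 for Stk11. Over all alternatives the adjusted p ran from 0.00730 to 0.9998 for Tsc22d3 in ZnF4 against wt and from 0.00856 to 0.593 for Ddit4 in ZnF4 against ZnF1.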

Other observations

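Fkbp5 and Tsc22d3 are both induced by glucocorticoids, but their ratio in RPKM, Tsc22d3 over Fkbp5, was 5.41 and 1.78 in ZnF4, 1.39 and 1.09 in ZnF1 and 0.907 and 0.402 in wt (fraction B, then fraction C). It was highest in the ZnF4 library of fraction B, where Fkbp5 was at its lowest. The ratio of Txnip to thioredoxin 1 (Txn1) was 4.62 and 1.82 in ZnF4, 1.05 and 1.37 in ZnF1 and 1.92 and 0.808 in wt. In the 9 promoter windows, which belong to 6 of the 8 genes, the E-box CACGTG occurred in 0, beside 6.02% of all windows.

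Among restraints of mTORC1, Sesn2, a stress-induced sestrin, stood at 1.2 and 1.0 RPKM in ZnF4, 3.0 and 8.5 RPKM in ZnF1 and 2.0 and 1.3 RPKM in wt. Nprl2 had the largest positive mean difference of the list between ZnF4 and wt, and Rps6kb2, an mTORC1 substrate kinase, the next positive one, at 46.6 and 45.6 RPKM in ZnF4 against 32.3 and 31.3 RPKM in wt.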
